A study of Bos taurus with 6 samples.

Results

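The genes of the sarcomere and of its non-muscle relatives were examined in intramuscular fat (IMF) of Qinchuan cattle. The members were the rows of the mRNA table whose symbol names a myosin heavy or light chain, troponin, tropomyosin, alpha-actinin, myosin-binding protein C, myomesin, myozenin, leiomodin or tropomodulin, together with MYLPF, MYBPH, ACTA1, ACTC1, TTN, NEB and TCAP. By this rule 58 of 25444 genes were members. They were sorted, from general knowledge of muscle, into 9 slow fibre genes, 13 fast fibre genes, 11 genes of striated muscle that both fibre types use, 10 developmental or cardiac genes, 13 non-muscle or smooth muscle genes and 2 genes that were not placed. Of the 58 members, 52 had at least 10 counts over both mRNA libraries and 4 had no count in either.

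The animals were Qinchuan males of 24 months. Steers (CM in the labels) had been castrated by surgery at 6 months, and bulls (IM in the labels) were left intact. Both groups were weaned together, received the same feed and, per the methods of the study, descended from a single sire. The fat was dissected from the sternomandibularis, a neck muscle. RNA of 6 steers and RNA of 6 bulls each made 1 pooled mRNA library according to the series' design text, whereas the sample labels give 3 animals for each. Small RNA was measured in 2 libraries per group, each pooled over 3 animals by the design text and from 1 by the labels.

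The contracting unit of a muscle fibre is the sarcomere, in which thick filaments of myosin pull on thin filaments of actin, and troponin and tropomyosin on the thin filament let calcium switch the pull on. Most parts exist as a slow and a fast version coded by separate genes, so that the transcripts of a muscle sample carry a record of its fibre types. Slow fibres contract steadily and burn fuel in mitochondria, and fast fibres contract quickly and lean more on glycogen. Fat cells have no sarcomeres, and IMF lies between the bundles of fibres from which it must be cut.

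The mRNA counts summed to 12677375 in steers and 9868415 in bulls. Size factors by the median of ratios were 1.04 and 0.959, and the log2 ratio (log2 fold change) given for each gene is that of steers over bulls with 0.5 counts added in each library. A gene is called lower or higher here when the libraries differed by more than 2-fold and the 95% counting interval of the log2 ratio left out 0. Since each group was 1 pool, the comparison has no replicate check, no p-value is given, and intervals cover counting error only. Over all 14540 genes with at least 10 counts, 10.2% were called lower in steers and 5.65% higher. All 9 adipocyte markers in the table were counted in both pools, with a summed share of 0.283% for steers and 0.402% for bulls and a median log2 ratio of -0.08. Of these 9, FABP4 (-1.06) was called lower and CIDEA (2.75) higher. Markers of skeletal muscle outside the members were present too, with 9 of 9 genes counted in both libraries. Their summed share of counts was 0.121% for steers and 0.251% for bulls, with a median log2 ratio of -0.67 (range -1.26 to -0.29).

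All 9 slow fibre genes were called lower in steers, compared with the 10.2% of all genes that were, and their median log2 ratio was -2.23 beside 0.01 for all genes. Of the 13 fast fibre genes, 0 were called lower and 1 higher, with a median of 0.11. The highest slow gene, TPM3 at -1.04, lay below the lowest fast gene, MYOZ1 at -0.89, though the counting intervals of this pair overlapped. The slow genes together took 0.0318% of the counts in steers (95% Clopper-Pearson interval 0.0308% to 0.0328%) and 0.150% in bulls (0.148% to 0.153%). The fast genes took 0.114% in steers (0.113% to 0.116%) and 0.126% in bulls (0.124% to 0.129%). The skeletal muscle markers above moved in the same direction as the slow genes, by less, and their part in the result was not tested. In bulk tissue fewer fibres and less RNA per fibre cannot be told apart. When the libraries were scaled to those 9 markers instead, 7 slow genes were still called lower (4.96% of all genes). TPM3 (-0.36) and MYBPC1 (-0.61) were not, and the slow median was -1.56. Among those markers, CKM, ATP2A1, CASQ1, PYGM and ENO3 are also on the list of fast fibre genes outside the sarcomere used below. MB is on the slow one. This scaling is thus partly a comparison of slow genes with fast genes.

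**Figure D1:**
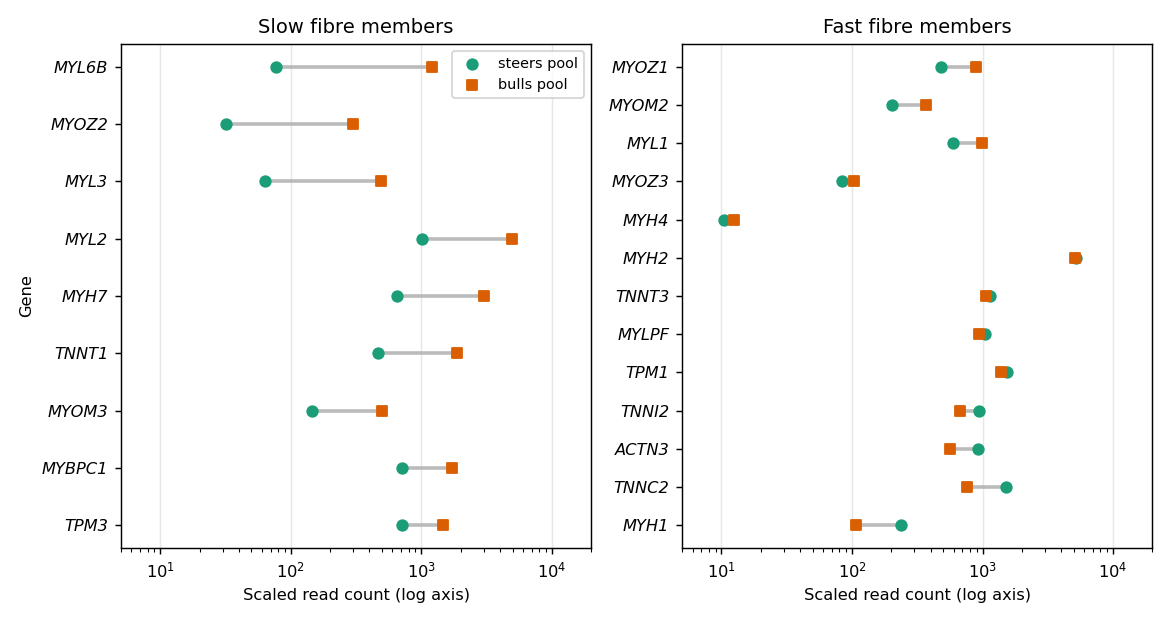
Scaled read counts (log axis) of the 9 slow and 13 fast fibre genes, with 1 point for the steers pool and 1 for the bulls pool, joined by a line. Every slow gene is lower in steers, by 2.05-fold for TPM3 and up to 15.4-fold for MYL6B, whereas the points of fast genes such as MYH2 lie on each other.

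MYH7, the heavy chain of slow myosin and of the heart ventricle, had 675 counts in steers against 2906 in bulls. Its log2 ratio was -2.23 (95% interval -2.35 to -2.11), or 4.68-fold lower in steers. The regulatory light chain of the same myosin, MYL2, had 1060 and 4711 counts and a log2 ratio of -2.27 (-2.37 to -2.18). MYL3, its essential light chain, had 66 and 470 counts and was at -2.94 (-3.35 to -2.58). The heavy chain and both of its light chains were thus 4.68-fold to 7.70-fold lower in the steers pool. MYL6B, an essential light chain of slow fibres that is also found outside muscle, showed the widest gap of all members, with 81 counts in steers against 1152 in bulls and a log2 ratio of -3.94 (-4.30 to -3.63). Its neighbour in the RefSeq annotation, MYL6, the light chain that most non-muscle cells use, had 22356 and 17014 counts and was at 0.27 (0.24 to 0.30).

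On the thin filament, TNNT1, which ties slow troponin to tropomyosin, had 485 counts in steers against 1801 in bulls, a log2 ratio of -2.01 (-2.16 to -1.87). TPM3, the tropomyosin of slow fibres, which other cells also make in shorter forms, had 740 and 1395 counts and was at -1.04 (-1.17 to -0.91). TPM3 was the slow gene nearest to the 2-fold line, and its interval crossed that line. In the thick filament, MYBPC1, the slow myosin-binding protein C, had 736 and 1646 counts and a log2 ratio of -1.28 (-1.41 to -1.16). MYOM3, a myomesin of the M-band that links neighbouring thick filaments, had 152 and 475 counts and was at -1.76 (-2.04 to -1.50). MYOZ2, which binds alpha-actinin and calcineurin at the Z-disc of slow and cardiac muscle, had 33 counts in steers against 288 in bulls and was at -3.23 (-3.81 to -2.73). Slow genes of the thick filament, thin filament, M-band and Z-disc were therefore all lower in the steers pool, over a range from -3.94 to -1.04. Slow troponin C and slow troponin I, TNNC1 and TNNI1, were not analysed here.

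The fast heavy chains did not follow MYH7. MYH2, the heavy chain of fast oxidative fibres, had 5396 counts in steers against 4929 in bulls, a log2 ratio of 0.01 (-0.05 to 0.06). MYH1, the heavy chain of faster, more glycolytic fibres, had 247 and 102 counts and was the 1 fast gene called higher in steers, at 1.15 (0.82 to 1.501), where 5.65% of all genes were called higher. MYH4, the fastest heavy chain, was scarce in both pools, with 11 and 12 counts and a log2 ratio of -0.24 (-1.57 to 1.06), so at this depth a 2-fold difference either way could not be told from none. By these counts, scaled by size factors, steers had a level of MYH2 close to that of bulls, more MYH1 and less MYH7. The closeness of MYH2 depended on the scaling. It was at -0.23 when scaled by total counts and at 0.68 when scaled to the skeletal muscle markers.

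Several other fast genes, most of them of the thin filament, were equal or somewhat higher in steers without being called. TNNC2, the calcium sensor of fast troponin, had 1583 counts in steers against 729 in bulls, and its log2 ratio of 0.996 (0.87 to 1.13) lay just short of the 2-fold line. TNNI2, the inhibitory subunit, had 983 and 649 counts and was at 0.48 (0.33 to 0.62), and TNNT3, the tropomyosin-binding subunit, had 1189 and 1011 counts and was at 0.11 (-0.01 to 0.23). The values of the 3 fast troponin genes stood in that order, each above the next by more than their intervals. TPM1, a tropomyosin of fast fibres and of the heart that smooth muscle and other cells also make, had 1607 and 1329 counts. It was at 0.15 (0.05 to 0.26). ACTN3, the alpha-actinin of fast Z-discs, had 965 and 539 counts and a log2 ratio of 0.72 (0.56 to 0.87). MYLPF, the fast regulatory light chain, had 1093 and 906 counts and was at 0.15 (0.02 to 0.28).

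A few fast genes were lower in steers, though none reached 2-fold. MYL1, the fast essential light chain, had 624 counts in steers against 954 in bulls and was at -0.73 (-0.88 to -0.59). MYOM2, the myomesin of fast fibres, had 211 and 351 counts and was at -0.86 (-1.11 to -0.61), and MYOZ1, the myozenin of fast Z-discs, had 504 and 858 counts and was at -0.89 (-1.05 to -0.73). MYOZ3, another fast myozenin, had 87 and 100 counts and a log2 ratio of -0.32 (-0.75 to 0.11). The fast class was accordingly split, with 8 genes above 0 and 5 below. The split moved with the scaling, since total counts in place of size factors placed the fast median at -0.13 and took MYH1 to 0.91, where it was not called.

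**Figure D2:**
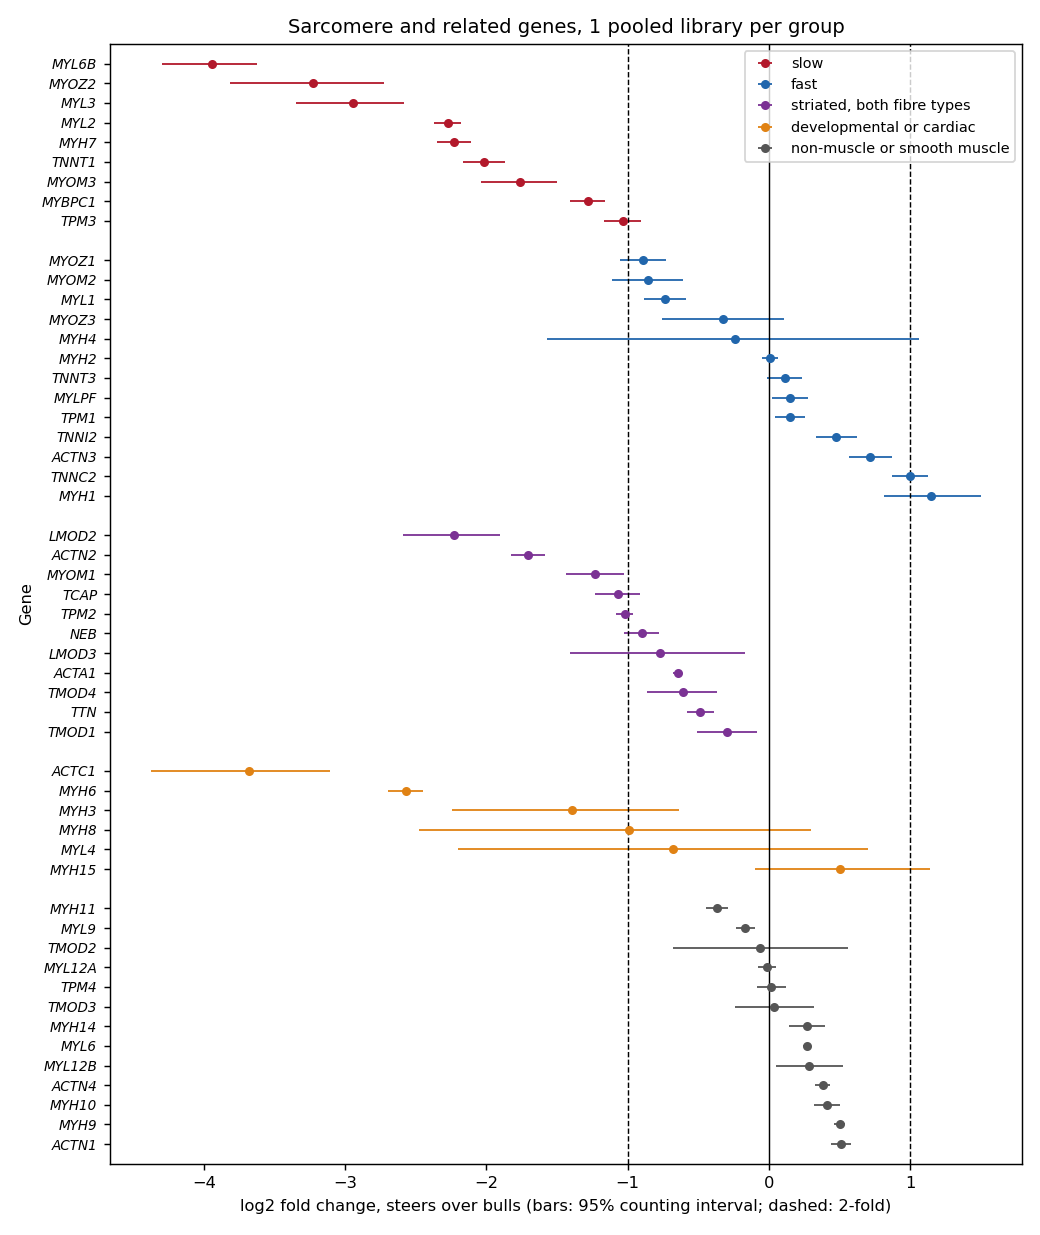
Log2 ratio of steers over bulls for the 52 members with at least 10 counts, by class, with 95% counting intervals as bars and dashed lines at 2-fold. The slow genes lie from -3.94 to -1.04, the fast genes from -0.89 to 1.15, and the non-muscle or smooth muscle genes from -0.37 to 0.51.

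A share within a library does not depend on how the libraries are scaled, so slow genes were also compared with their fast paralogues inside each pool. MYH7 made up 11.1% of the counts of MYH7 and MYH2 in steers (95% interval 10.3% to 11.9%) and 37.1% in bulls (36.0% to 38.2%). Of the counts of MYL2 and MYLPF, 49.2% were on MYL2 in steers (47.1% to 51.4%) and 83.9% in bulls (82.9% to 84.8%). TNNT1 took 29.0% of the troponin T counts of TNNT1 and TNNT3 in steers (26.8% to 31.2%) and 64.0% in bulls (62.2% to 65.8%). In each of these pairs the slow member lost share in steers. The share of MYL3 beside MYL1 was 9.57% in steers and 33.0% in bulls, that of TPM3 beside TPM1 31.5% and 51.2%, and that of MYOZ2 beside MYOZ1 6.15% and 25.1%. The smallest gap was that of MYOM3 beside MYOM2, with 41.9% in steers (36.7% to 47.1%) and 57.5% in bulls (54.1% to 60.9%). In all of these pairs the slow share was lower in steers and the counting intervals of the libraries did not overlap. As 1 sum, the slow class took 21.7% of the slow and fast counts in steers (21.1% to 22.3%) and 54.3% in bulls (53.8% to 54.9%).

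The adult heavy chains can be read in the same way. Of the counts on MYH7, MYH2, MYH1 and MYH4, MYH7 held 10.7% in steers (9.92% to 11.5%) and 36.6% in bulls (35.5% to 37.6%). MYH1 held 3.90% in steers (3.44% to 4.41%) and 1.28% in bulls (1.05% to 1.56%). By these counts the steers pool had a smaller slow share and a larger MYH1 share among these heavy chains. How reads that match more than 1 of these related genes were counted is not given in the sources used here. The split among them is therefore uncertain beyond the counting intervals. These shares compare the same genes between libraries and are not levels of one gene against another, since counts were not divided by transcript length.

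**Figure D3:**
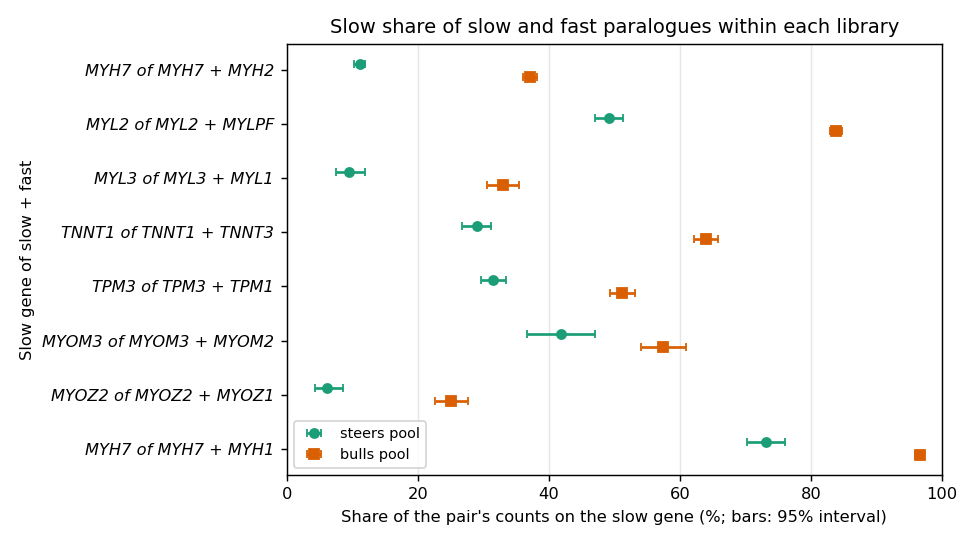
Share of a pair's counts that fell on the slow gene (x axis, percent) for 8 slow and fast pairs, with 95% intervals, in the steers pool and the bulls pool. In every pair the steers share is the lower, for MYH7 with MYH2 11.1% against 37.1%, and no pair of intervals overlaps.

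Among the 11 genes that both fibre types use, 5 were called lower in steers and 0 higher, beside 10.2% and 5.65% of all genes. All 11 had a log2 ratio below 0 (median -0.90). Scaled to the skeletal muscle markers, 4 of the 11 lay above 0, ACTA1 (0.03), TTN (0.19), TMOD1 (0.37) and TMOD4 (0.06). ACTA1, the main actin of skeletal muscle, had 13852 counts in steers against 19910 in bulls, a log2 ratio of -0.65 (-0.68 to -0.61). TTN, the spring that runs from the Z-disc to the M-band, had 1575 and 2027 counts and was at -0.49 (-0.58 to -0.39), and NEB, the ruler along the thin filament, had 808 and 1387 counts and was at -0.90 (-1.03 to -0.78). None of these backbone genes was called. LMOD2, a leiomodin that lengthens thin filaments and is strongest in the heart, had 89 counts in steers against 386 in bulls and was at -2.23 (-2.59 to -1.90). ACTN2, the alpha-actinin found in the Z-discs of all fibres, had 735 and 2204 counts and a log2 ratio of -1.71 (-1.83 to -1.59), opposite in sign to its fast partner ACTN3. ACTN2 took 43.2% of the counts of both in steers (40.9% to 45.6%) and 80.3% in bulls (78.8% to 81.8%).

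Of the remaining shared genes, MYOM1, the general myomesin, had 283 and 610 counts and was called lower at -1.23 (-1.44 to -1.02). TCAP, which caps titin at the Z-disc, had 488 and 943 counts and was at -1.07 (-1.23 to -0.91). TPM2, the beta-tropomyosin of slow and fast fibres and of smooth muscle, had 3220 and 6006 counts and was at -1.02 (-1.08 to -0.96). TCAP and TPM2 were called, but both intervals crossed the 2-fold line. The tropomodulins, which cap the pointed ends of thin filaments, were not called, with 345 and 390 counts for TMOD1 (-0.30) and 233 and 327 for TMOD4 (-0.61). LMOD3 was the scarcest of the class and was at -0.77 (-1.41 to -0.17).

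Among the 10 developmental or cardiac genes, 6 had at least 10 counts, and 3 of these were called lower in steers, beside 10.2% of all genes. ACTC1, the actin of the heart and of embryonic skeletal muscle, had 24 counts in steers against 288 in bulls, a log2 ratio of -3.68 (-4.37 to -3.10). It took 0.173% of the counts of ACTC1 and ACTA1 in steers (0.111% to 0.257%) and 1.43% in bulls (1.27% to 1.60%). MYH6, the heavy chain of the heart atrium, had 641 and 3506 counts and was at -2.57 (-2.70 to -2.45). Both kept an interval well below the 2-fold line. MYH6 lies next to MYH7 in the RefSeq annotation and is nearly identical to it, and how the authors' counting treated reads that match both is not given in the sources used here, so the counts of MYH6 and MYH7 are uncertain as a split. MYH6 held 48.7% of the counts of the pair in steers (46.0% to 51.4%) and 54.7% in bulls (53.5% to 55.9%).

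MYH3, the embryonic heavy chain, was the other member called lower, at -1.39 (-2.24 to -0.64), on 20 and 49 counts. MYH8, the perinatal heavy chain, had 8 and 15 counts and was at -0.99 (-2.47 to 0.30), and MYL4, the light chain of atrium and embryonic muscle, had 8 and 12 counts and was at -0.68 (-2.20 to 0.70). MYH15 had 59 and 38 counts and was the class member above 0, at 0.51 (-0.10 to 1.14). MYH3, MYH8 and MYL4 were scarce in both pools, with at most 49 counts in a library. MYH13, the heavy chain of eye muscles, had 2 and 6 counts, TNNI3, the cardiac troponin I, had 3 and 1, and MYL7 and MYBPC3 had 0 in both. The members that were not placed, MYL10 and TNNI3K, also had 0 counts in both libraries. MYH13 and TNNI3 are not compared, since their counts are too few.

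The 13 non-muscle and smooth muscle members gave 0 calls in either direction, beside 15.9% of all genes, and their median log2 ratio was 0.27 (range -0.37 to 0.51). Their summed share was 0.498% for steers and 0.490% for bulls. MYH9, the main non-muscle myosin heavy chain, had 13593 counts in steers against 8823 in bulls and was at 0.50 (0.46 to 0.54). MYH10, its relative, had 2374 and 1643 counts and was at 0.41 (0.32 to 0.50), and MYH14, the remaining non-muscle heavy chain, had 1158 and 883 and was at 0.27 (0.14 to 0.40). None of these heavy chains was called, nor were the non-muscle alpha-actinins. ACTN1 had 4367 and 2817 counts and was at 0.51 (0.44 to 0.58), and ACTN4 had 7224 and 5098 and was at 0.38 (0.33 to 0.43). With total counts in place of size factors these 5 genes stayed above 0, from 0.03 for MYH14 to 0.27 for ACTN1.

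MYH11, the smooth muscle heavy chain, had 2365 counts in steers against 2806 in bulls and was at -0.37 (-0.45 to -0.29). MYL9, the regulatory light chain of smooth muscle, had 3466 and 3574 counts and was at -0.17 (-0.23 to -0.10). The light chains MYL12A and MYL12B, near-identical neighbours, had 4022 and 3729 counts (-0.01) and 345 and 260 counts (0.29). TPM4, a non-muscle tropomyosin, had 1609 and 1460 counts and was at 0.02 (-0.09 to 0.12), and TMOD3, a tropomodulin of most cells, had 226 and 202 counts and was at 0.04 (-0.24 to 0.32). TMOD2 had 92 counts in all and was at -0.06. The smooth muscle and pericyte markers outside the members had a median of -0.05 over 9 genes, among them ACTA2 at -0.66, TAGLN at 0.45 and MYLK at -0.05. Of these 9 genes 0 were called higher and 1 lower, where 5.65% of all genes were called higher and 10.2% lower. The 1 was DES, which skeletal muscle also makes and which had 3721 and 8207 counts (-1.26).

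**Figure D4:**
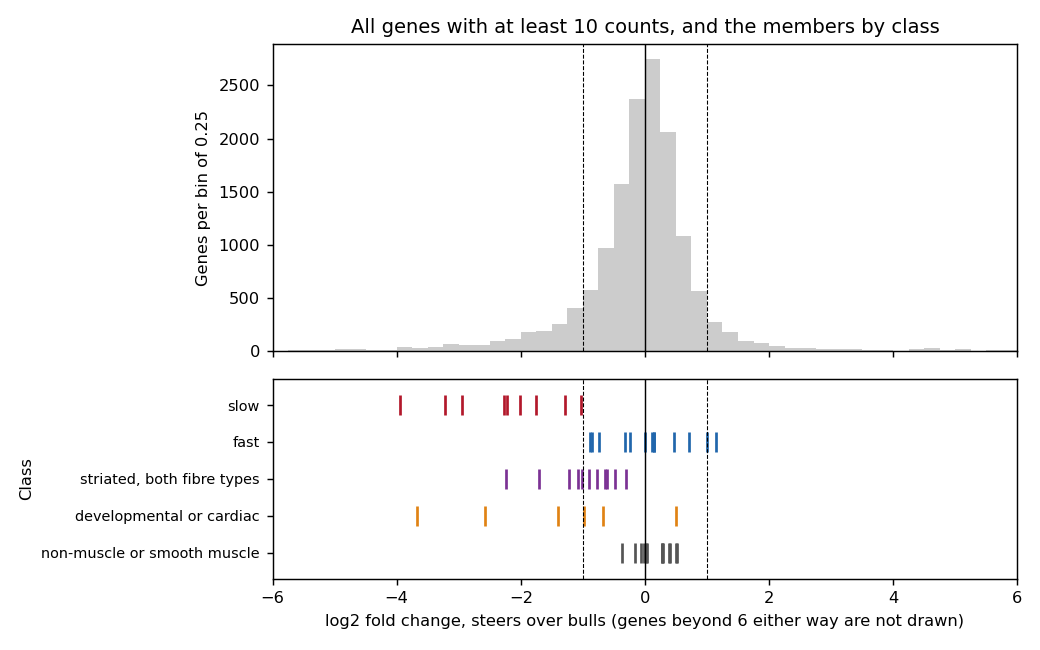
Histogram of the log2 ratios of all genes with at least 10 counts, in bins of 0.25, above the values of the members by class, with dashed lines at 2-fold and 42 genes beyond 6 either way not drawn. All slow genes lie in the lower tail, where 10.2% of genes were called, and the non-muscle genes lie around the centre.

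Genes that build or brace the sarcomere without being members were taken from a list of 30, of which 25 are in the table and 24 had at least 10 counts. Of these, 10 were called lower in steers and 0 higher, where 10.2% of all genes were called lower and 5.65% higher. Their median was -0.90. XIRP2, an actin-binding protein of Z-discs and myotendinous junctions, had 64 counts in steers against 334 in bulls and was at -2.50 (-2.92 to -2.12). CSRP3, a Z-disc LIM protein typical of slow and cardiac muscle, had 331 and 1147 counts and was at -1.91 (-2.10 to -1.74), and CRYAB, a small heat shock protein of oxidative muscle, had 724 and 1938 and was at -1.54 (-1.67 to -1.42). The shared scaffold genes FLNC (-0.46) and LDB3 (-0.18) were not called. The list as a whole was close to the shared members in its median.

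Outside the sarcomere, a list of 10 genes tied to slow fibres, as products or as regulators, had a median of -0.50. Of these, 3 were called lower and 0 higher, where 10.2% of all genes were called lower and 5.65% higher. CASQ2, a calcium store of slow and cardiac muscle, was at -2.66 on 8 and 49 counts, CA3, the carbonic anhydrase of slow fibres, at -1.61 on 231 and 651, and PLN, which restrains the slow calcium pump, at -1.13 on 41 and 83. Not called were MB (-0.97), FABP3 (-0.52), SLN (-0.49), the slow calcium pump ATP2A2 (-0.43), COX7A1 (-0.04), SOX6 (0.01) and TEAD1 (0.09). The last pair, the 2 genes above 0, are regulators, and SOX6 is known as a repressor of slow genes rather than a marker. Of 14 fast fibre genes outside the sarcomere with at least 10 counts, 1 was called higher and 2 lower, with a median of -0.40. These counts are close to the shares of all genes, 5.65% higher and 10.2% lower. PVALB, the calcium buffer of the fastest fibres, had 72 counts in steers against 13 in bulls and was the gene called higher, at 2.30 (1.48 to 3.32). FBP2 at -1.74 and AMPD1 at -1.36 were called lower. The medians of these non-sarcomere lists were close to each other, unlike those of the slow and fast members.

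The small RNA libraries give another reading of muscle, with 2 libraries per group. Vertebrate myosin genes carry miRNAs in their introns, and in the RefSeq annotation of cattle MIR208B lies within MYH7, MIR208A within MYH6 and MIR499 within MYH7B. The mature sequences of the muscle miRNAs are shown because the slow miRNAs share most of their seed, the bases that choose targets, and because near-identical sequences can share reads. Seeds (bases 2 to 8) are in capitals.
miR-208b: aTAAGACGaacaaaaggtttgt
miR-208a: aTAAGACGagcaaaaagcttgt
miR-499: tTAAGACTtgcagtgatgttt
miR-1: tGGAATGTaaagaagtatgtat
miR-206: tGGAATGTaaggaagtgtgtgg
miR-133a: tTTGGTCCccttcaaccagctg
miR-133b: tTTGGTCCccttcaaccagcta

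The seeds of miR-208b and miR-208a are equal, that of miR-499 matches them at 6 of 7 bases, miR-1 and miR-206 share a seed, and miR-133a and miR-133b differ at 1 of 22 bases. All 4 small RNA libraries were compared by edgeR's quasi-likelihood test on counts with TMM factors over 1073 sequences, of which 7.08% were called lower and 7.08% higher in steers (adjusted p under 0.05 and over 2-fold). By non-overlap of the libraries alone, 31.5% of the sequences were lower in steers and 26.7% higher, so non-overlap carries little weight here. The libraries are said to come from animals of the same groups as the mRNA pools and are not a separate set of cattle.

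MiR-499 was at 20.1 and 20.2 TMM-scaled CPM (counts scaled to a common library size) in the steers libraries and at 75.9 and 61.1 CPM in those of bulls. Its log2 ratio was -1.76 (SE 0.47), which edgeR called lower (adjusted p = 0.00432). The call was lost without either steers library, with log2 ratios of -1.71 and -1.73 and adjusted p of 0.237 and 0.458 in edgeR, fits in which the lone steers library is assumed to vary as the bulls libraries do. With total counts the log2 ratio was -2.22 and the adjusted p 0.0693 in edgeR. Its host gene is listed under a locus number that RefSeq gives as MYH7B, outside the members, and had 20 counts in steers against 37 in bulls (log2 ratio -0.99, -1.87 to -0.19). The host was thus scarce in both pools, and its difference was smaller than that of MYH7.

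MiR-208b was at 91.5 and 119 CPM in steers and at 235 and 198 CPM in bulls, a log2 ratio of -1.04 (SE 0.48). By edgeR it was not called (adjusted p = 0.136), although the libraries of the groups did not overlap. Its host MYH7 was at -2.23 in the mRNA pools. MiR-208a had 0 counts in both steers libraries and 4 and 2 in those of bulls and was not tested, whereas its host row MYH6 had 641 and 3506 counts. The miRNA in MYH7 was therefore counted in every library and the one in MYH6 hardly at all.

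The miRNAs of all striated muscle also tended to lower values in steers, but few were called. MiR-1 was at 20.3 and 18.7 CPM in steers and 57.1 and 47.3 CPM in bulls, a log2 ratio of -1.42 (SE 0.48, adjusted p = 0.0279 from edgeR). This call was lost in 3 of the 4 fits without 1 library, those without either steers library or without the first bulls library, in which edgeR gave log2 ratios of -1.43, -1.33 and -1.09. It was also lost with total counts (-1.89, adjusted p = 0.0775 from edgeR), upper-quartile factors (-1.24, 0.0567) and no filter (-1.52, 0.128). MiR-133a, the most abundant, was at 2020 and 3126 CPM in steers and 5345 and 4986 CPM in bulls (log2 ratio -1.01, SE 0.47, adjusted p = 0.145 from edgeR). MiR-133b was at -0.74 (SE 0.46, adjusted p = 0.283 from edgeR). MiR-206, which is most typical of slow and regenerating fibres, was at 24.8 and 53.9 CPM in steers and 65.5 and 49.0 CPM in bulls, overlapping between groups (-0.54, SE 0.46, adjusted p = 0.449 from edgeR). MiR-486, which red blood cells hold in quantity as well as muscle, went the other way, at 3378 and 7347 CPM in steers and 2177 and 1705 CPM in bulls (log2 ratio 1.47, SE 0.48, adjusted p = 0.0233 from edgeR). That call was lost without the first or second steers library or the second bulls library, with log2 ratios of 1.97, 0.84 and 1.26 (adjusted p = 0.257, 0.837 and 0.0596 from edgeR), with total counts (1.08, 0.219) and without a filter (1.31, 0.656).

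Within a library, counts per 1000 counts of miR-133a do not depend on scaling. By this ratio miR-499 stood at 9.97 and 6.46 in the steers libraries and at 14.2 and 12.3 in those of bulls, without overlap. MiR-208b stood at 45.3 and 38.1 in steers and 44.0 and 39.6 in bulls, so the libraries overlapped and the means, 41.7 and 41.8, were nearly equal. Relative to miR-133a, then, miR-499 was lower in both steers libraries and miR-208b was not. MiR-1 also overlapped, at 10.0 and 5.98 in steers and 10.7 and 9.48 in bulls. MiR-206 and miR-133b did not overlap and were higher in steers by this ratio, miR-206 by little, at 12.26 against 12.25 for the nearest libraries. Their own log2 ratios were below 0 (-0.54 and -0.74), as was that of miR-133a (-1.01), the divisor. The share of all sequences that do not overlap by this ratio was not computed, so non-overlap carries little weight here too. With 2 libraries per group an exact permutation test cannot go below p = 0.333, so these ratios were not tested.

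**Figure D5:**
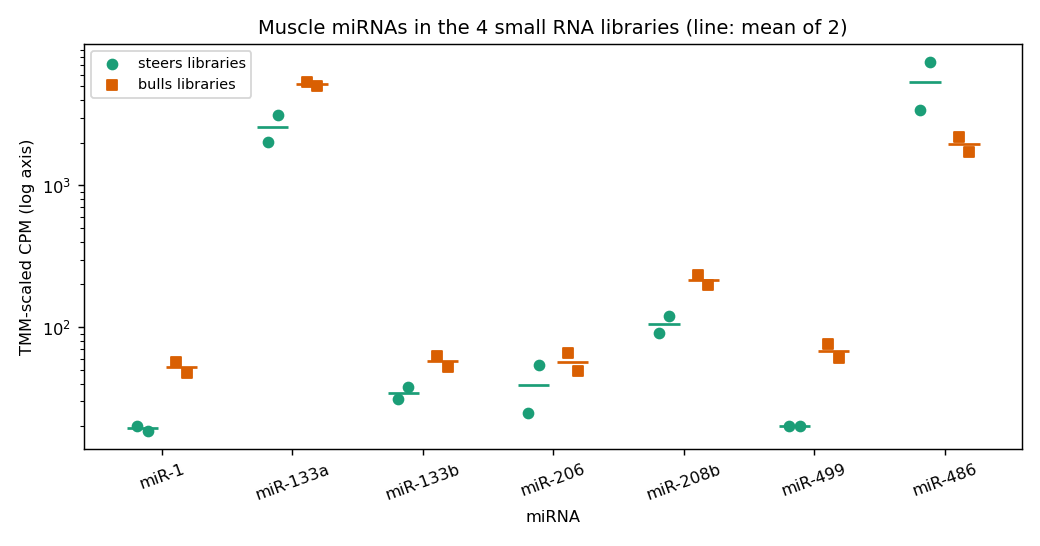
TMM-scaled CPM (log axis) of 7 muscle miRNAs in the 2 steers and 2 bulls small RNA libraries, with a line at the mean of each group. MiR-499 and miR-1 are lower in both steers libraries, miR-206 overlaps between the groups, and miR-486 is higher in both steers libraries.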

How the data were processed

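IMF RNA was sequenced by the authors as 1 pooled mRNA library per group on an Ion Proton and as 2 small RNA libraries per group on an Illumina HiSeq. The authors aligned cleaned mRNA reads to the bovine genome with MapSplice, and used BWA to place small RNA reads on miRBase sequences and the genome. The submitters' processing notes also name GRCh37.p13, a human build, without a role. The deposited values of both tables are raw counts. Which program counted the reads, and whether by strand, is not given in the sources used here.

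Groups follow the treatment label of each sample. Of the 58 symbols, 57 are current RefSeq symbols and 1, MYLPF, an older one (RefSeq names and gene order are those of ARS-UCD2.0). Further members of the classes were not analysed here. Transcript lengths were not used, so levels are not compared between genes. The members, classes and lists were chosen with earlier results of these data known. Named are all slow and fast members, members of other classes with at least 100 counts over both libraries, scarcer ones with the value or range shown, and every muscle miRNA tested. Genes named from the further lists were chosen after their values were seen.

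For mRNA, log2 ratios of steers over bulls used median-of-ratios size factors and a prior of 0.5 counts, with exact 95% Clopper-Pearson intervals from scipy 1.17.1. For miRNA, edgeR 4.0.16 (TMM, filterByExpr, glmQLFit and glmQLFTest) was used under R 4.3.3 with Benjamini-Hochberg adjustment over 1073 sequences, and the SE is the absolute log2 fold change over the square root of F. Both were run on simulated counts with known changes. The mRNA simulation held counting error alone, and the miRNA simulation gave every sequence the same spread. Neither therefore checks the calls against differences between animals. Mature sequences are those in the study's supplementary list of known miRNAs. The small RNA libraries held 6556511 to 10452582 counts. Nothing in the labels shows that these libraries come from separate animals, so the p-values measure the spread between libraries.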

Additional observations from a re-analysis of the deposited data

How the results depend on the processing

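All 9 slow genes were called lower under every alternative but 1 (other scalings, count minimums and prior). The exception scaled the libraries to the skeletal muscle markers, some of them fast fibre genes, and was chosen after seeing the data. That scaling gave a slow median of -1.56, a fast median of 0.78 with 4 fast genes higher, 2 shared genes lower, 1 developmental gene higher and 4 non-muscle genes higher, where 4.96% of all genes were lower and 25.6% higher. Scaling by total counts lowered the median of all genes by 0.24 and gave a slow median of -2.47 and a fast median of -0.13, with 2 fast genes lower and 0 higher, where 13.9% of all genes were lower and 3.86% higher. Upper-quartile scaling gave 2 fast genes higher (5.84% of all genes). Without the 2-fold requirement, 3 fast genes were lower and 6 higher, 11 shared genes were lower, and 2 non-muscle genes were lower and 7 higher, where 25.1% of all genes were lower and 27.4% higher. No called gene took the opposite sign, but some genes that were not called did. By total counts TNNT3, MYLPF and TPM1 were at -0.13, -0.09 and -0.09, and 4 fast genes were above 0 in place of 8. Scaled to the muscle markers, ACTA1, TTN, TMOD1 and TMOD4 were at 0.03, 0.19, 0.37 and 0.06, and MYH11 was at 0.30. With size factors all of these genes were below 0 with counting intervals that left out 0, ACTA1 at -0.65 and MYH11 at -0.37. Coding length was not used as an alternative, since no lengths were at hand.

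Of the muscle miRNAs, 2 were called lower and 1 higher. By total counts 0 were lower and 0 higher, when edgeR called 0 of all sequences lower and 1 higher. With upper-quartile factors 1 was lower (4.85% of all sequences lower, 9.41% higher), and without a filter 1 was lower and 0 higher (0.434% and 0.409%). Leaving out each library in turn left 1 library in a group. In these fits the log2 ratio of miR-499 ran from -1.95 to -1.41, that of miR-1 from -1.59 to -1.09 and that of miR-486 from 0.84 to 1.97. Their calls were lost in some of these fits, as given above. The share of all sequences called lower fell in each of them. The share called higher fell in all but the fit without the first bulls library. With the replicate number as a block 4 were lower, miR-133a (adjusted p = 0.0209 from edgeR) and miR-208b (0.0327) being added, and 11.1% of all sequences were lower and 12.4% higher in place of 7.08% each. The labels do not say that the numbers pair the libraries, and with 2 pairs the correlation of deviations, 0.304, does not settle it. Depth limits the scarce genes most, MYH4 and MYH8 among them.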
